A study of Mus musculus with 6 samples.

Results

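The proteasome is the barrel-shaped protease that degrades ubiquitin-tagged proteins, and 49 genes of its subunits and assembly factors were examined in adult mouse retinal ganglion cells, the output neurons of the retina. Members were chosen by gene symbol alone: every gene of the deposited count table whose symbol is Psma, Psmb, Psmc, Psmd, Psme, Psmf or Psmg followed by a number and, in some, a last letter. This gave 49 of the 22413 genes in the table, with 8 Psma, 11 Psmb, 6 Psmc, 14 Psmd, 5 Psme, 1 Psmf and 4 Psmg symbols. In 3 bulk RNA libraries the mice were Tgfbr1flx/flx;Vglut2Cre/+, and in the other 3 they were Tgfbr1flx/flx;Vglut2+/+. Both alleles of Tgfbr1, a receptor for the cytokine TGF-beta, were thus floxed in all 6 libraries, and the groups differ by a Cre allele under the Vglut2 (Slc17a6) gene, which many glutamatergic neurons besides ganglion cells use. The first group is called knockout and the second control, numbered 1 to 3 as in the labels. Whether each sample came from a single animal or from pooled animals is not stated, so the p-values speak only of the spread among these 6 libraries, which may be technical.

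The 20S core of the proteasome is a stack of rings. Outer alpha rings (Psma) gate the entrance and inner beta rings (Psmb) hold the proteolytic sites. The 19S regulator, made of an ATPase ring (Psmc) and non-ATPase subunits (most Psmd), binds ubiquitin chains, unfolds the substrate and feeds it into the core, while 11S caps and PA200 (Psme) open the core without ubiquitin. Dedicated chaperones (Psmg, Psmd5, Psmd9 and Psmd10) assemble core and regulator. Neurons do not dilute damaged proteins by dividing, and proteasomes act in axons and at synapses. In immune and interferon-treated cells the catalytic subunits Psmb5, Psmb6 and Psmb7 are replaced by Psmb8, Psmb9 and Psmb10, which gives the immunoproteasome.

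Library totals ran from 8098891 to 21126291 counts in the knockouts and from 7486359 to 16372260 in the controls. A count of 0 allows up to 3 counts, or 0.142 to 0.37 CPM (counts scaled to the library total) in the knockouts and 0.183 to 0.401 CPM in the controls. Intervals and limits of this kind cover counting error only. Genes with at least 10 counts numbered 5790 to 7209 in the knockouts and 4258 to 4863 in the controls. Tgfbr1 had 46, 0 and 793 counts in the knockouts, against 1, 0 and 1538 in the controls. Those counts cover the whole gene and not the floxed part, so they do not check the genotype. Control 3 stood apart: Slc17a6, the driver gene and a ganglion cell marker, had 2101 to 13948 counts in the knockouts, 13572 and 3498 in controls 1 and 2, and 0 in control 3. Summed over 12 ganglion cell markers, the level was 3439 to 5055 CPM in the knockouts, 3847 and 5333 CPM in controls 1 and 2, and 647 CPM in control 3. Not every marker was low in control 3, where 6 of the 12 were detected, against 9 each in controls 1 and 2. Rbpms was at 257 CPM in control 3, against 4.48 and 66 CPM in controls 1 and 2 and 0.072 to 289 CPM in the knockouts. Pou4f1 was at 85.1 CPM in control 3, against 0 and 265 CPM in controls 1 and 2 and 37.1 to 101 CPM in the knockouts. The ganglion cell marker Pou4f2 had at most 1 count in any library. Over 8 endothelial markers the summed level was 212 to 636 CPM in the knockouts, 206 and 35.9 CPM in controls 1 and 2, and 5292 CPM in control 3, where all 8 were detected. Several results that rest on control 3, but not all, are therefore given with and without it. Markers of further cell types also varied between libraries of a genotype. Amacrine markers summed to 50.2, 666.5 and 192 CPM in knockouts 1 to 3, and 325, 21.2 and 284 CPM in controls 1 to 3. Müller glia markers summed to 95, 49 and 509 CPM in the knockouts, against 124, 419 and 414 CPM in the controls. Pericyte and smooth muscle markers summed to 344, 46.6 and 187 CPM in the knockouts, against 0.0861, 546 and 443 CPM in the controls. In bulk RNA, fewer cells of a type and less RNA per cell cannot be told apart.

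Knockout libraries held more of the family than control libraries did. With at least 10 counts taken as detected, 41, 44 and 44 of the 49 were detected in knockouts 1 to 3, against 28, 35 and 33 in controls 1 to 3. All 3 knockouts lay above all 3 controls. Of the 147 values per genotype, 18 (12.2%) were under 10 counts in the knockouts, against 51 (34.7%) in the controls. Over all tested genes those shares were 18.4% and 38.0%, so all tested genes show a gap of the same kind. In all 6 libraries, 16 of the 49 genes (32.7%) were detected, against 20.9% of all tested genes. A value was mostly large or absent, since 218 of 294 (74.1%) were 100 counts or more and 55 (18.7%) were 0.

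**Figure D1:**
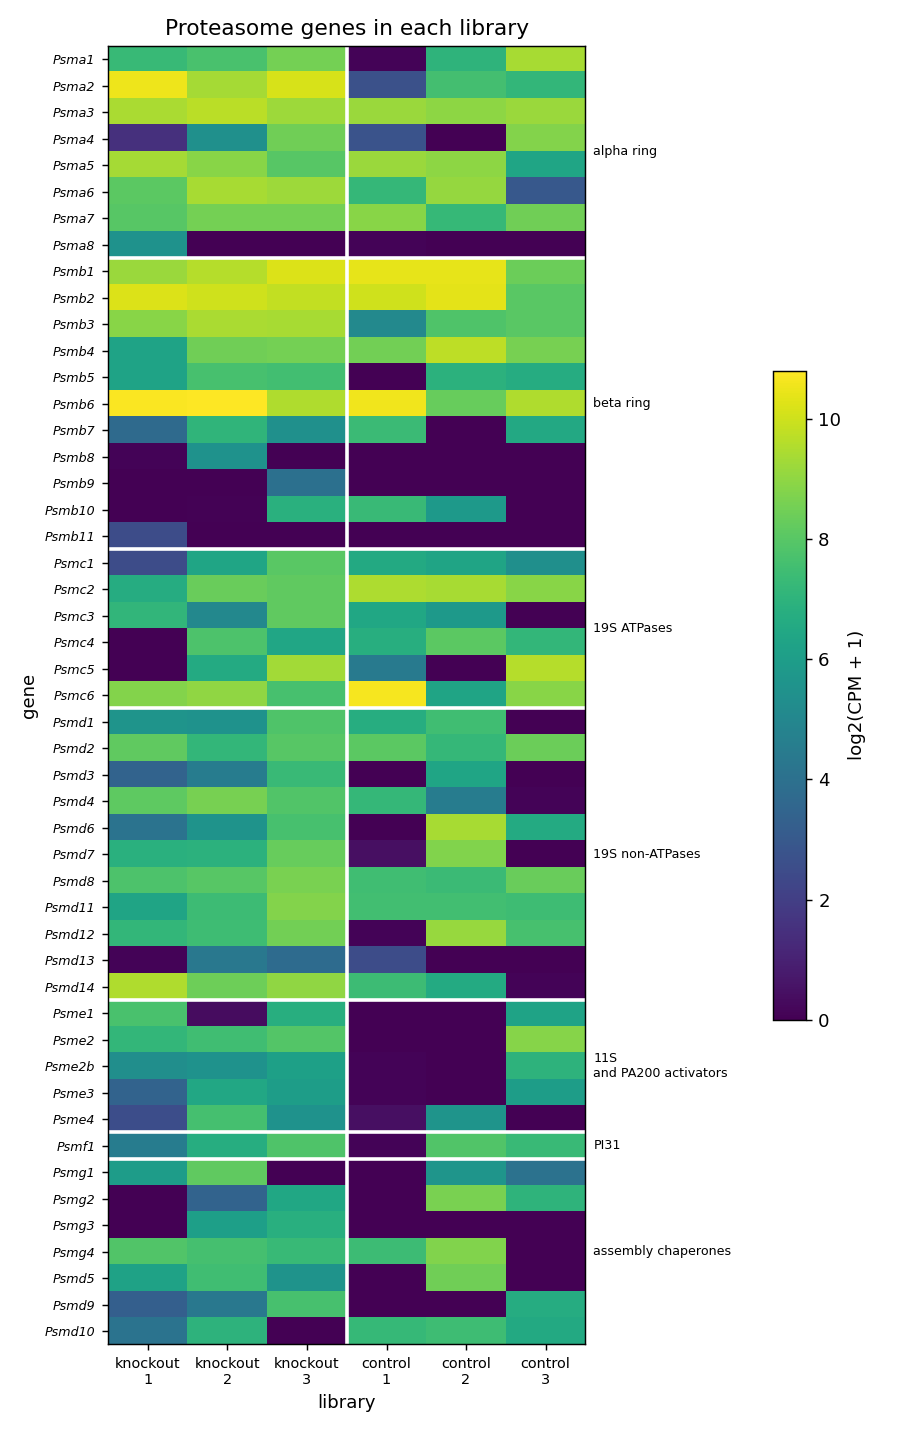
Level of the 49 proteasome genes (rows, by class) in the 3 knockout and 3 control libraries (columns), as log2(CPM + 1) by column total. The alpha and beta rings hold the brightest cells, Psma3 is even across all 6 libraries, and in the 11S and PA200 block control 1 has no gene at 10 counts or more and control 2 has 1.

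Knockout and control were compared with edgeR's quasi-likelihood test over the whole table. A filter on low counts kept 5727 genes, among them 44 of the 49 proteasome genes; Psma8, Psmb8, Psmb9, Psmb11 and Psmg3 did not pass it. At a Benjamini-Hochberg adjusted p under 0.05, 0 of 5727 genes were called (0.0%), and hence 0 of the 44. An unadjusted p under 0.05 was found for 281 genes (4.91%), 257 of them higher and 24 lower in the knockout, and 1 of the 44 proteasome genes (2.27%), Psma2. The spread behind this was wide, with a biological coefficient of variation of 2.04 over the table. Of the other tools, limma voom called 88 genes (1.54%) and none of the 44 at an adjusted p under 0.05. DESeq2 called 885 of 5900 genes (15.0%), among them Psmg3 as the only proteasome gene. All 3 knockouts lay above all 3 controls in 593 tested genes (10.4%) and in 5 of the 44 (11.4%), namely Psma2, Psma3, Psmb3, Psmd4 and Psmd14. The opposite held in 132 tested genes (2.3%) and in 1 of the 44 (2.27%), Psmc2. These shares are near those of all tested genes. Without control 3 the counts were 12 of the 44 higher (27.3%) and 3 lower (6.82%), beside 19.4% and 7.07% of all tested genes, and with 5 libraries in place of 6 such patterns are easier to reach. The 12 include both Psme2 and its near copy Psme2b.

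Among the alpha ring genes, Psma2 had the largest log2 fold change, short of the adjusted threshold. It lies on mouse chromosome 13 (GRCm38, the build called mm10, 14613242 to 14625673) and encodes a constitutive subunit present in every 20S core. Its level was 1452, 657 and 1116 CPM in knockouts 1 to 3, and 5.43, 192 and 143 CPM in controls 1 to 3. All knockouts lay above all controls, and the nearest pair, knockout 2 and control 2, differed 3.43-fold. The mean was 1075 ± 399 CPM in the knockout, against 113 ± 96.5 CPM in the control (SD, n = 3 each), a log2 fold change of 3.51 ± 0.97 (SE). The unadjusted p was 0.0016 and the adjusted p was 0.681 in edgeR's quasi-likelihood test. The unadjusted p was 0.153 in DESeq2, 0.105 in limma voom and 0.082 in edgeR with no low-count filter, so the unadjusted call was lost in those 3 settings. Over the 14 alternative settings the log2 fold change ran from 2.96 to 4.26, and the adjusted p from 0.0814, without control 2, to 0.732, without knockout 1. Without control 3 it was 3.81, with an adjusted p of 0.367.

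The promoter of Psma2 is shown because this gene had the largest log2 fold change among the 44 genes of the edgeR fit. It is the RefSeq GRCm38.p6 sequence from 250 bases before to 50 bases after the gene's start, plus strand, chr13:14612992-14613291. Capitals mark its 1 match to the CCAAT box, the site of the transcription factor NF-Y, 54 bases before the start.
Psma2 promoter: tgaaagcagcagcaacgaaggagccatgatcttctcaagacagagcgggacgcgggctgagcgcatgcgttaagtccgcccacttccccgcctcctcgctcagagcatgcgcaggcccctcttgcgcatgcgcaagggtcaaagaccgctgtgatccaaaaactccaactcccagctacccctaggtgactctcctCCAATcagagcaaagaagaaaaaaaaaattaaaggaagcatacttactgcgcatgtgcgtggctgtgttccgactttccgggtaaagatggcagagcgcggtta
Psmb3 and Psmc2, which also did not overlap between the genotypes but in opposite directions, hold the same letters upstream, 43 and 28 bases before the start, both on the plus strand at chr11:97703371-97703415 and chr5:21785227-21785271.
Psmb3 window: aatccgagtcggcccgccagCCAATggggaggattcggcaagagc
Psmc2 window: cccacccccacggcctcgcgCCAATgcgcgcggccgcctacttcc
CCAAT, read on both strands as CCAAT or ATTGG, occurred in the promoters of all 6 genes whose genotypes did not overlap, a set chosen after its values were seen. It occurred in 14 of the 41 proteasome genes with a promoter in the table (34.1%), against 41.1% of all 27025 genes. The Psma3 window, chr12:70974373-70974672, lies inside that gene's span of 70969283 to 70995877 and not at its first base. The core of the antioxidant response element, TGACNNNGC on either strand, bound by Nfe2l1 and Nfe2l2, occurred in 6 of the 41 (14.6%), against 14% of all genes. Those were Psmb5, Psmb6, Psmc6, Psmd9, Psmd12 and Psme4, with none of the 6 genes that did not overlap among them. A match is a description of the letters in the window and not a bound site.

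The other alpha ring genes were close in the 2 genotypes or varied within them. Psma3 was the most even of the proteasome genes, at 685, 818 and 588 CPM in knockouts 1 to 3, and 583, 505 and 570 CPM in controls 1 to 3. Its highest library was 1.62 times its lowest. Although no knockout lay below a control, knockout 3 and control 1 differed only 1.01-fold, within their counting intervals of 571 to 605 and 569 to 597 CPM. With TMM or RLE library sizes the genotypes overlapped. Its log2 fold change was 0.43 ± 0.69 (SE, adjusted p = 0.9998). Psma7 averaged 330 ± 66.6 CPM in the knockout, against 323 ± 162 CPM in the control. Psma5 was at 457 ± 196 CPM in the knockout, against 382 ± 265 CPM in the control (SD, n = 3 each for both genes). Both are constitutive ring subunits, and their groups overlapped. Psma6 had the largest log2 fold change of the ring after Psma2, at 1.33 ± 1.24 (SE, adjusted p = 0.9998). It was at 270, 663 and 600 CPM in knockouts 1 to 3, and 145, 538 and 6.9 CPM in controls 1 to 3, with overlap. In the controls Psma1 and Psma4 rested on control 3, which held 10864 of 11841 counts of Psma1 and 7349 of 7416 counts of Psma4. Psma8, the testis form that takes the place of another alpha subunit in spermatogenic cells, had 613, 0 and 0 counts in the knockouts, against 1, 0 and 0 in the controls.

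Summed over the 8 alpha ring genes, the level was 3505, 3223 and 3646 CPM in knockouts 1 to 3, and 1784, 2009 and 2260 CPM in controls 1 to 3. The groups did not overlap, and the ratio of their means was 1.71. They did not overlap on TMM or RLE library sizes either. Without Psma2 the sums were 2053, 2565 and 2530 CPM in the knockouts, against 1778, 1817 and 2118 CPM in the controls, a ratio of 1.25. They overlapped by column total and on RLE library sizes but not on TMM library sizes, and the overlap by column total came through control 3. Most of the gap in the alpha ring sum was therefore the counts of a single gene. Without control 3 the ratio was 1.82 with Psma2 and 1.33 without it, and the groups did not overlap in either case.

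The 3 genes with the highest mean level per length were in the beta ring. Per length, as FPKM (counts scaled by gene length and library total), Psmb2, Psmb6 and Psmb1 had the highest means over all 6 libraries, at 1114, 1007 and 901 FPKM. In single libraries the order differed, and Psma2 was the highest core gene in knockouts 1 and 3, at 1535 and 1180 FPKM. Psmb2, a structural beta subunit, was at 1194, 1024 and 905 CPM in knockouts 1 to 3, and 1051, 1322 and 264 CPM in controls 1 to 3. Psmb1, likewise structural, was at 582, 766 and 1212 CPM in the knockouts, against 1363, 1347 and 332 CPM in the controls. In both genes control 3 was the lowest library and the genotypes overlapped. Their log2 fold changes were 0.38 ± 0.61 for Psmb2 and -0.19 ± 0.61 for Psmb1, and without control 3 they were -0.08 and -0.65. Psmb3, also structural (chromosome 11), was at 477, 692 and 668 CPM in knockouts 1 to 3, and 33.2, 227 and 264 CPM in controls 1 to 3. No knockout reached down to a control, with a gap of 1.81-fold between the nearest pair. The log2 fold change was 1.98 ± 1.06 (SE, unadjusted p = 0.0755, adjusted p = 0.9998). Psmb4 was at 75.6, 349 and 368 CPM in the knockouts, against 365, 849 and 385 CPM in the controls, so that the groups overlapped through knockout 3 and control 1.

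**Figure D2:**
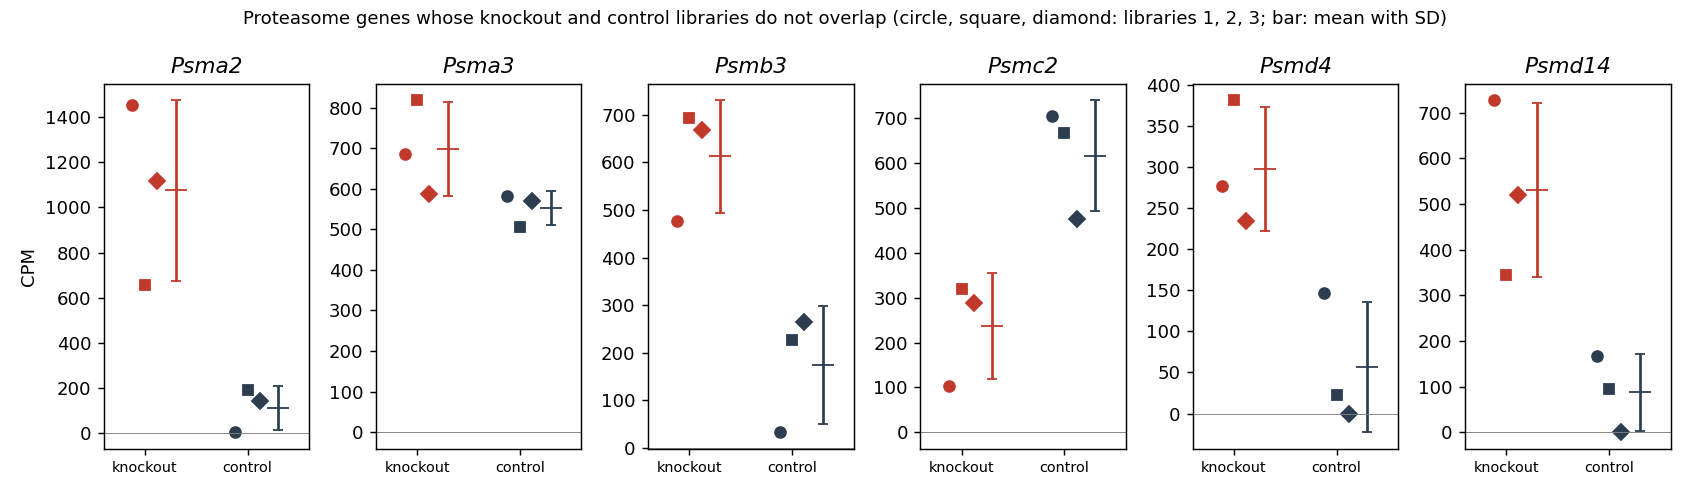
CPM of the 6 proteasome genes whose 3 knockout libraries (left, red) and 3 control libraries (right, dark) did not overlap; markers are libraries 1, 2 and 3 and bars are the mean with its SD. Psma2 shows the widest gap, Psma3 the narrowest, and Psmc2 is the gene with the knockouts below the controls.

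The 3 catalytic subunits of the constitutive core had log2 fold changes of both signs. Psmb6, which carries the caspase-like site, was at 1712, 1782 and 723 CPM in knockouts 1 to 3, and 1525, 315 and 732 CPM in controls 1 to 3, a log2 fold change of 0.75 ± 0.61. Psmb5, which carries the chymotrypsin-like site and is the main target of proteasome inhibitors, was at 76.5, 202 and 185 CPM in the knockouts, against 0, 121 and 103 CPM in the controls (1.23 ± 2.83). Psmb7, which carries the trypsin-like site, was at 12.4, 133 and 41.9 CPM in the knockouts, against 161, 0 and 90.2 CPM in the controls (-0.51 ± 3.01). All 3 overlapped between genotypes, with an adjusted p of 0.9998 each in edgeR's quasi-likelihood test.

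Among the immunoproteasome subunits, Psmb8 and Psmb9 each reached 10 counts in 1 library, and Psmb10 did so in 3. Psmb8 had 1, 951 and 0 counts in knockouts 1 to 3 and 0 in every control. Psmb9 had 0, 0 and 122 counts in the knockouts, against 0 in each control. Against a limit of 3 counts over the control group, these are at least 261-fold and 33.4-fold higher in the knockout, each from 1 library and below the filter of the test. Psmb10 had 0, 1 and 935 counts in the knockouts, against 1839, 423 and 0 in the controls. Its log2 fold change was -1.07 ± 3.42 (adjusted p = 0.9998). No library held all 3 genes, and knockout 1 held at most 1 count of any. Psmb11, the thymus form of the chymotrypsin-like subunit, had 65, 0 and 0 counts in the knockouts, against 0 in the controls (at least 17.8-fold higher). Microglia carry immunoproteasomes, and the summed level of 9 microglia and macrophage markers was 203, 9.23 and 0.988 CPM in knockouts 1 to 3, and 1.9, 0.134 and 0.0611 CPM in controls 1 to 3. Of these markers, Ptprc had 1639 and Tyrobp 1181 counts in knockout 1, C1qa had 188 in knockout 2, and Csf1r had 12 in control 1. Cx3cr1 had at most 1 count and P2ry12 at most 2 in every library. The part of microglia in these counts was not tested. Psmb9 shares 212 exonic bases with Tap1 on the opposite strand, and the strand setting of the counts is not given, so reads of those genes cannot be told apart there.

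Summed over all 11 beta ring genes, the level was 4134, 4993 and 4232 CPM in the knockouts, against 4656, 4238 and 2169 CPM in the controls. The groups overlapped, and the ratio of 1.21 became 1.0 without control 3. For the whole 20S core the sums were 7639, 8215 and 7879 CPM in knockouts 1 to 3, and 6440, 6247 and 4429 CPM in controls 1 to 3. These did not overlap (ratio 1.39, and 1.25 without control 3), but without Psma2 they did, at 6187, 7558 and 6762 CPM in the knockouts, against 6434, 6055 and 4287 CPM in the controls. The 14 constitutive core genes were detected in full in knockouts 1, 2 and 3 and in control 3, and 12 of them in control 1 and in control 2. Their median level was 225, 378 and 342 FPKM in the knockouts, and 164, 241 and 262 FPKM in the controls.

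**Figure D3:**
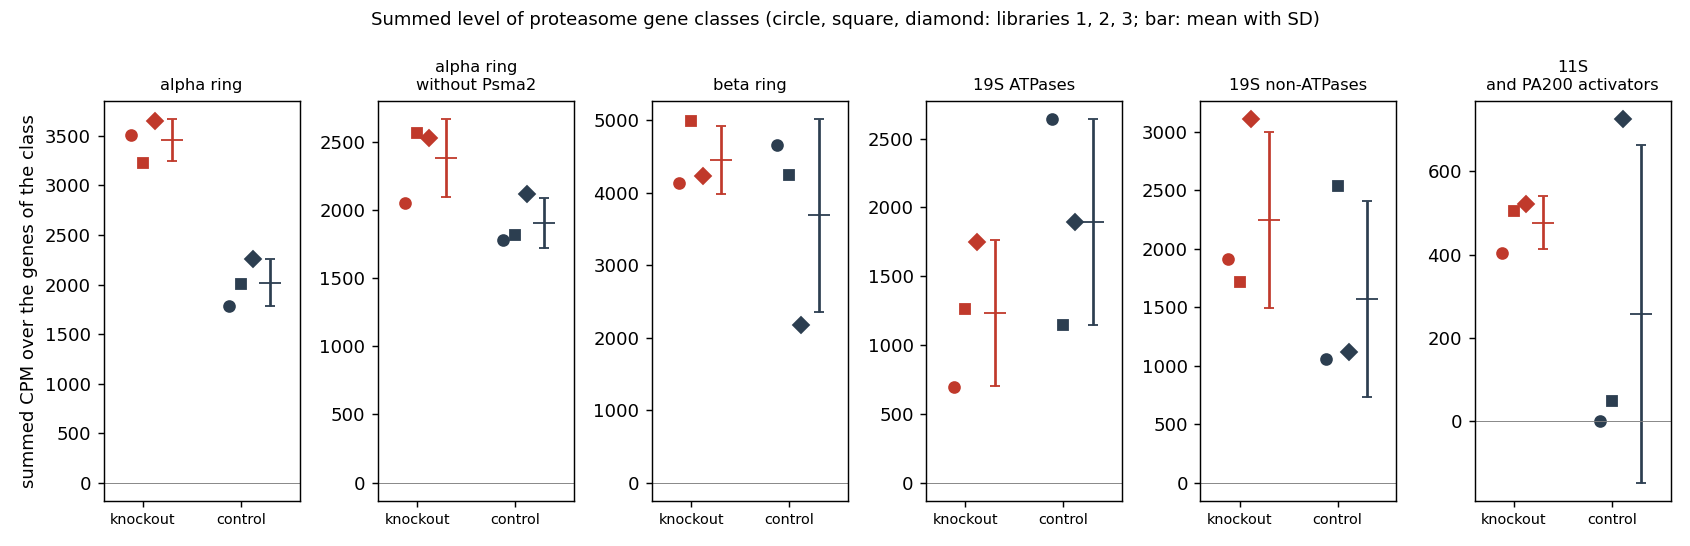
Summed CPM of 6 proteasome gene classes in the knockout (left, red) and control (right, dark) libraries; markers are libraries 1, 2 and 3 and bars are the mean with its SD. The alpha ring groups are apart until Psma2 is left out, the beta ring and 19S groups overlap, and in the 11S and PA200 panel control 3 lies above all knockouts while controls 1 and 2 lie near 0.

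The 19S regulator genes were lower per length than the core, with a median over 17 subunits of 57.1, 76.2 and 161 FPKM in the knockouts, and 62.7, 55.1 and 57.9 FPKM in the controls. The ATPase ring and the non-ATPase subunits had median log2 fold changes of opposite sign, with no gene past the adjusted threshold. The log2 fold change was positive in 2 of the 6 ATPase genes, with a median of -0.41 that turned to 0.14 without knockout 1. It was positive in 9 of the 11 non-ATPase genes, with a median of 0.47 that turned to -0.07 without knockout 3. With RLE size factors the medians were -0.69 and 0.19. The summed level was 692, 1264 and 1748 CPM of ATPase genes in the knockouts, against 2645, 1149 and 1893 CPM in the controls. For the non-ATPase subunits it was 1914, 1717 and 3112 CPM in the knockouts, against 1057, 2536 and 1120 CPM in the controls. In both classes the genotypes overlapped. Taken as 1 regulator, the 17 genes summed to 3482 ± 1208 CPM in the knockout, against 3467 ± 393 CPM in the control (SD, n = 3 each), a ratio of 1.0.

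Psmc2, an ATPase of the base ring (chromosome 5), was the single proteasome gene with every knockout below every control. It was at 102, 320 and 289 CPM in knockouts 1 to 3, and 706, 668 and 475 CPM in controls 1 to 3. The nearest pair, knockout 2 and control 3, differed 1.48-fold, and the log2 fold change was -1.34 ± 0.96 (SE, adjusted p = 0.9998). It ran from -1.6 to -1.03 over the alternative settings. Its ring partner Psmc6 was at 448, 513 and 201 CPM in the knockouts, against 1632, 77.7 and 472 CPM in the controls. Psmc5 was unlike either, with 0, 97.3 and 625 CPM in the knockouts, against 20.1, 0 and 764 CPM in the controls.

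Psmd14, the deubiquitinase that cuts the ubiquitin chain off the substrate (chromosome 2), was at 728, 346 and 521 CPM in knockouts 1 to 3, and 167, 95.5 and 0.0611 CPM in controls 1 to 3. The groups did not overlap and the nearest pair differed 2.07-fold. The log2 fold change was 2.67 ± 1.57 (SE, adjusted p = 0.9998). Psmd4, a ubiquitin receptor of the regulator (chromosome 3), was at 277, 381 and 235 CPM in the knockouts, against 147, 22.2 and 0.0611 CPM in the controls, a log2 fold change of 2.34 ± 2.28 (adjusted p = 0.9998). In both genes the lowest library was control 3, with 1 count each. Without control 3 the log2 fold changes were 2.05 for Psmd14 and 1.7 for Psmd4, and the groups still did not overlap. The scaffold subunit Psmd2 was nearly level, at 228 ± 75.4 CPM in the knockout, against 250 ± 95.9 CPM in the control (SD, n = 3 each). Psmd11, a further non-ATPase subunit, was at 78.1, 171 and 438 CPM in knockouts 1 to 3, against 186, 185 and 172 CPM in controls 1 to 3, so the knockouts surrounded the controls. Psmd7 had 4 counts in control 1 and 3251 in control 2, and Psmd12 had 1 and 4238, so single subunits varied widely within a genotype.

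The 11S and PA200 genes divided the control libraries more than the genotypes. Psme1 and Psme2, the subunits of the interferon-induced 11S cap, had 2918, 6 and 866 counts of Psme1 in knockouts 1 to 3, and 0, 0 and 1240 in controls 1 to 3. Psme2 had 1940, 3766 and 1929 counts in the knockouts, against 0, 0 and 7577 in the controls. Psme3, the nuclear 11S subunit, had 136, 1842 and 511 counts in the knockouts, against 1, 0 and 1026 in the controls. Controls 1 and 2 were at or near 0 in all 3 genes and control 3 was in or above the range of the knockouts. The log2 fold changes were 2.27 ± 3.42 for Psme1, 0.36 ± 2.61 for Psme2 and 1.4 ± 3.25 for Psme3, each with an adjusted p of 0.9998, and the sign of Psme2 turned with RLE scaling (-0.03). Psme4, which encodes PA200, had 68, 4113 and 362 counts in the knockouts, against 4, 352 and 0 in the controls.

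Summed over the 5 Psme genes, the level was 403, 505 and 522 CPM in knockouts 1 to 3, and 0.517, 47 and 727 CPM in controls 1 to 3. Psme2 and its near copy Psme2b, compared below, both enter this sum, at 463 and 126 CPM in control 3. The ratio of the means was 1.85 with control 3 and 20.1 without it. Without control 3, edgeR's quasi-likelihood test gave an unadjusted p under 0.05 for Psme1 and Psme2 beside Psma2, Psmb3 and Psmd9, 5 of 45 tested proteasome genes (11.1%) beside 6.11% of all genes, and an adjusted p of 0.426 for both Psme genes. Psme2 and Psme2b were highest in control 3, but Psme1 was highest in knockout 1, and Psme3 and Psme4 in knockout 2. The summed endothelial markers were highest in control 3, as given above. B2m, the light chain of class I antigen-presenting molecules, was at 840, 1154 and 689 CPM in the knockouts, against 689, 520 and 2733 CPM in the controls. The part of those cells in the Psme levels was not tested.

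Psme2b is a near copy of Psme2, and its values are uncertain for that reason. The coding sequences, both 717 bases in the GENCODE M21 transcripts, align without gaps and differ at 5 bases (99.3% identity). The stretch with 3 of these differences, coding bases 484 to 543, is shown with the differing bases in capitals, both on the minus strand of GRCm38, at chr14:55588049-55588246 for Psme2 (spliced) and chr11:48945576-48945635 for Psme2b.
Psme2: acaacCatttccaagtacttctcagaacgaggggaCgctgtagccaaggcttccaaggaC
Psme2b: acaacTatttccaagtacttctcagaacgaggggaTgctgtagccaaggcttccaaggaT
Psme2b had 556, 947 and 560 counts in the knockouts, against 1, 0 and 2058 in the controls. That was 0.287, 0.251 and 0.29 of the Psme2 count in knockouts 1 to 3 and 0.272 in control 3. In the 4 libraries with both genes, its count thus stood at a nearly fixed share of that of Psme2.

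Assembly chaperones were detected unevenly. Knockouts 1 to 3 held 5, 7 and 5 of the 7 genes, against 2, 5 and 4 in controls 1 to 3. Psmg3, a chaperone of alpha ring assembly, had 0, 1436 and 896 counts in the knockouts, against 0 in each control, at least 639-fold higher against 3 counts over the control group. It was below the filter of edgeR's test, and DESeq2 gave an adjusted p of 0.0123 with a log2 fold change of 11.61 ± 3.47 (SE), higher in 2 of 3 knockouts. A fitted fold change against a group at 0 depends on the settings of the fit and is no bound. Psmg1, which pairs with Psmg2 in the first step of alpha ring assembly, had 860, 6120 and 0 counts in the knockouts, against 0, 368 and 256 in the controls. Psmg2 had 0, 206 and 692 counts in the knockouts, against 0, 2956 and 2121 in the controls, so the partners differed in the direction of their means. Psmg4 was at 236, 193 and 154 CPM in the knockouts, against 166, 434 and 0 CPM in the controls. The 19S chaperones Psmd5, Psmd9 and Psmd10 were each under 10 counts in at least 1 library, and so was Psmf1, which encodes the proteasome-binding protein PI31 (119 ± 104 CPM in the knockout, against 132 ± 120 CPM in the control, SD, n = 3 each).

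All 49 genes together took 1.11%, 1.27% and 1.41% of the counts in knockouts 1 to 3, against 1.05%, 1.16% and 0.867% in controls 1 to 3, with overlap through knockout 1 and control 2. On TMM library sizes, those of the edgeR fit, the sums did not overlap, at 14395, 13916 and 14292 CPM in the knockouts, against 12845, 10475 and 9017 CPM in the controls (ratio 1.32), and on RLE library sizes they did. Across the 44 tested genes, 29 log2 fold changes were positive and 15 negative (65.9% positive, against 54.2% of all tested genes), with a median of 0.37 against 0.14 for all tested genes. By class the median was 0.38 over the 15 tested 20S core genes, 0.35 over the 17 regulator subunits, 1.4 over the 5 Psme genes and 0.13 over the 6 tested chaperones. The median of the Psme genes was 9.74 without control 3, 0.73 without control 1, 0.81 without control 2 and 0.76 without knockout 2. Scaling moved the base line, and with RLE size factors the median of all tested genes was -0.13. Relative to all tested genes, the 20S core median lay higher with TMM (0.38 against 0.14) and with RLE (0.14 against -0.13), and lower with limma voom (1.29 against 1.58) and with the low-count filter dropped (0.38 against 1.4). Relative to all tested genes, no direction of the core genes held over these settings.

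**Figure D4:**
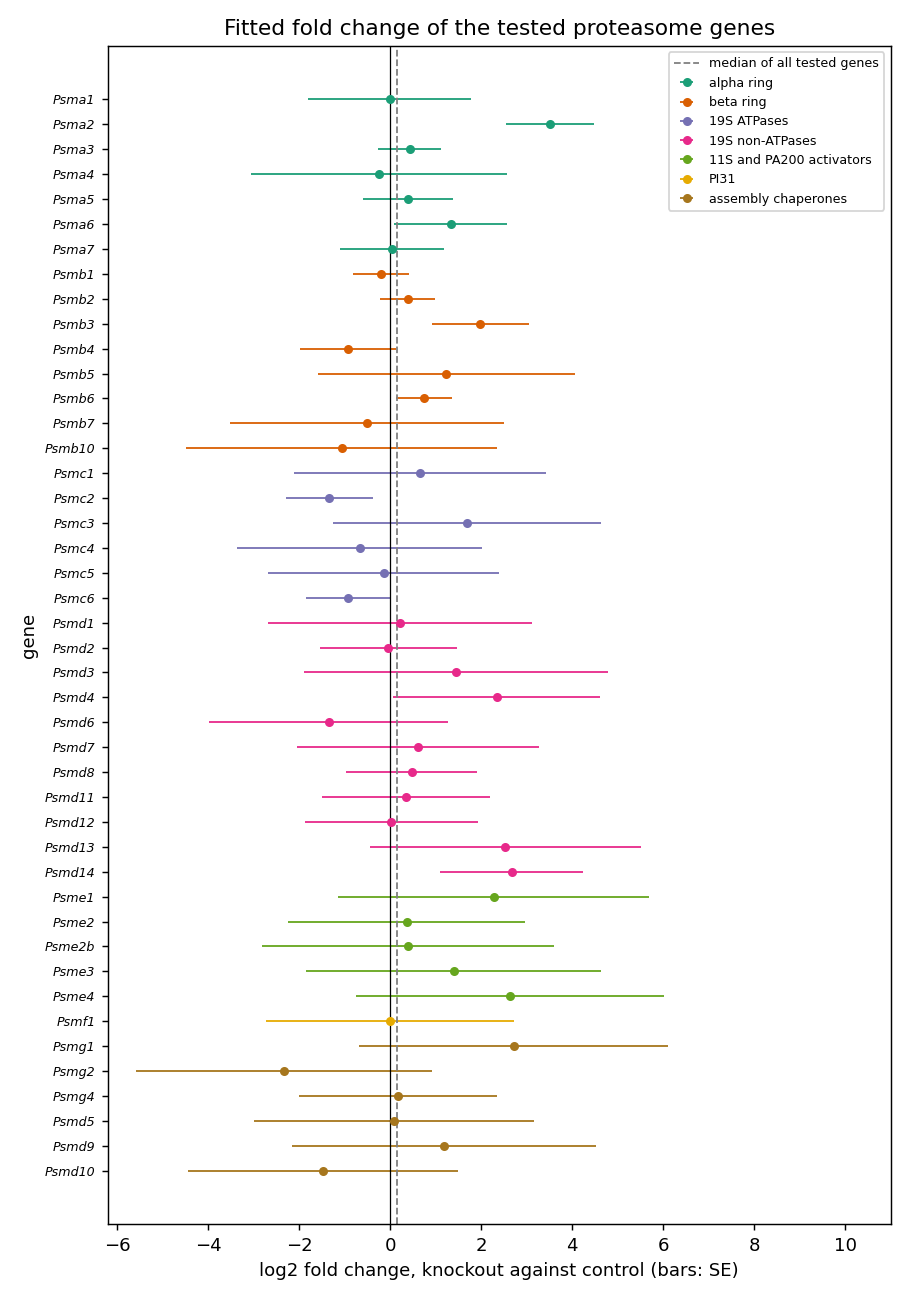
Fitted log2 fold change, knockout against control, of the 44 tested proteasome genes by class, with SE bars. Psma2 is the gene farthest from 0 relative to its SE, the dashed line marks the median of all tested genes (0.14), and most bars cross 0.

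Genes that work with the proteasome but carry other symbols were examined next. Of 15 partner genes in the table, 13 were tested, 9 with a positive and 4 with a negative log2 fold change. At an unadjusted p under 0.05 (4.91% of all tested genes), 2 were higher and 1 lower, and 0 passed the adjusted threshold. Adrm1, a ubiquitin receptor that docks on the 19S regulator, had 1293, 846 and 1052 counts in knockouts 1 to 3, and 4, 0 and 0 in controls 1 to 3. The ratio of the group totals, corrected for depth, was 656 with a counting interval of 256 to 2407 (adjusted p = 0.946). Akirin2, which brings proteasomes into the nucleus, had 232, 3776 and 742 counts in the knockouts, against 0 in each control (adjusted p = 0.681). Txnl1, a thioredoxin-like protein bound to the regulator, was at 137, 90.9 and 168 CPM in the knockouts, against 553, 963 and 815 CPM in the controls, a log2 fold change of -2.42 ± 0.94 (SE, adjusted p = 0.691). Uchl5, a deubiquitinase of the regulator, was at 64.1, 359 and 83.7 CPM in the knockouts, against 6.12, 37.4 and 0 CPM in the controls (3.77 ± 3.23, adjusted p = 0.9998). In these 4 of the 13 tested partners the genotypes did not overlap, 3 of them higher and 1 lower in the knockout, beside 10.4% and 2.3% of all tested genes. Pomp, the maturation factor of the 20S core, was at 885, 785 and 1052 CPM in the knockouts, against 224, 347 and 986 CPM in the controls, with overlap through control 3.

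Upstream, 13 of 16 ubiquitin and shuttling genes in the table were tested, 8 with a positive and 5 with a negative log2 fold change, with none at an unadjusted p under 0.05. Ubb, a polyubiquitin gene, averaged 3254 ± 464 CPM in the knockout, against 3102 ± 1377 CPM in the control (SD, n = 3 each). Uba1, the main ubiquitin-activating enzyme, was at 339, 190 and 501 CPM in knockouts 1 to 3, and 0, 92.2 and 153 CPM in controls 1 to 3, without overlap (2.26 ± 2.09, adjusted p = 0.9998). Nploc4 and Faf2, which extract substrates together with the segregase Vcp, had fold changes of -3.56 ± 3.7 and -2.04 ± 3.55 on the log2 scale. Their control levels rested on 1 library each, with 2050, 0 and 1 counts of Nploc4 and 0, 2569 and 0 of Faf2. Vcp itself was at 85.1, 129 and 122.5 CPM in the knockouts, against 74.85, 55 and 58.6 CPM in the controls (0.89 ± 2.73, adjusted p = 0.9998). Uba1 and Vcp were the 2 of the 13 tested genes without overlap, both higher in the knockout, beside 10.4% of all tested genes. Of 14 regulators of proteasome genes in the table, 9 were tested, 5 positive and 4 negative, with 0 under an unadjusted p of 0.05. Nfe2l1, the factor that raises proteasome genes when proteasomes are inhibited, had 284, 1686 and 1190 counts in the knockouts, against 3029, 439 and 202 in the controls. Nfe2l2, the oxidative stress factor, was at 17.4, 6.63 and 232 CPM in the knockouts, against 967, 0.134 and 950 CPM in the controls (-3.04 ± 2.04). Stat3 was at 4.57 ± 3.54, Mafk, a small Maf partner, at 3.13 ± 3.23 and Nfyb, an NF-Y subunit, at 2.07 ± 3.55 (log2 fold change ± SE). These rested on few libraries. Stat3 had 5, 3190 and 2476 counts in the knockouts, against 13, 0 and 293 in the controls. Mafk had 362, 750 and 6 counts in the knockouts, against 1, 0 and 130 in the controls. Nfyb had 43, 3237 and 0 counts in the knockouts, against 388, 0 and 0 in the controls. Of 14 antigen processing genes, 10 were tested, 3 positive and 7 negative, with 0 under an unadjusted p of 0.05. Among these the log2 fold change was -4.28 ± 3.48 for Pdia3, -0.61 ± 1.02 for Canx and -1.64 ± 3.03 for Irf1, and -0.44 ± 0.61 for B2m. Pdia3 had 154, 103 and 1 counts in the knockouts, against 11, 2881 and 591 in the controls. Irf1 had 0, 0 and 84 counts in the knockouts, against 46, 0 and 440 in the controls.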

How the data were processed

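Bulk RNA sequencing of 6 samples of mouse retinal ganglion cells was analysed. Per the labels' protocols, the VAHTS Universal V6 kit was used on 1 ng of RNA per library. The submitters' processing notes name the mm10 build and the tools HTSeq, HISAT2, fastp, DESeq2 and R 3.2.0, with no role stated. The sources used here do not give the cell isolation, the strand setting or the gene models. Of the 49 genes, 14 share exonic bases with another GENCODE M21 gene, 11 of them on the opposite strand. The authors deposited a table of raw counts and 1 of FPKM, which the authors scaled by gene length and library total. There were 0 columns of other samples and 0 features without a name.

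CPM by column total was computed from the counts. Genotypes were compared with edgeR 4.0.16 in R 4.3.3 (robust quasi-likelihood F test on genotype alone after TMM scaling and filterByExpr, Benjamini-Hochberg adjustment over all tested genes, threshold 0.05). The test was also run on simulated data, which is no measure of its power on these libraries. Alternatives were DESeq2 1.42.0 (adjusted p missing for 16513 genes), limma 3.58.1 (voom, and log2(FPKM + 1) or log2(FPKM + 0.1)), other scalings, no filter, thinning to 7486359 counts, a replicate block, and each library left out. Intervals are exact at 95%. Leaving control 3 out of the class sums was added after seeing the data.

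Members and lists were chosen with earlier results of these data known. Named in full are members with an unadjusted p under 0.05 or without overlap, the immunoproteasome and 11S subunits with their counterparts, the 3 with the highest FPKM, and up to 4 genes per list with the smallest p. Other genes are examples chosen after their values were seen. Same-numbered samples did not deviate together (correlations of -0.02, 0.03 and -0.01), so numbers were not taken as pairs. Coordinates and promoters are from RefSeq GRCm38.p6, and coding sequences from GENCODE M21.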

Additional observations from a re-analysis of the deposited data

How the results depend on the processing

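No proteasome gene passed an adjusted p under 0.05 in the edgeR and limma settings run; DESeq2 called Psmg3. Genes called over the whole table numbered 0 as reported, 885 with DESeq2, 88 with limma voom, and 0 to 7 with 1 library left out. Proteasome genes with an unadjusted p under 0.05 numbered 1 as reported, beside 4.91% of all genes. They numbered 4 with limma voom (Psma6, Psmb2, Psmb6 and Psme2), beside 12.2% of all genes. On log2(FPKM + 1) they numbered 2 (Psma2 and Psmd4), beside 7.7% of all genes. With 1 library left out they numbered 1 to 5, beside 4.2% to 6.11% of all genes. Those with every knockout above every control numbered 5, 4 on TMM and on RLE library sizes, and 6 to 12 with 1 library left out. The share of all tested genes went up too, at 10.4% with all libraries and 13.6% to 19.4% with 1 left out. That share was 10.6% on TMM and 9.22% on RLE library sizes. The proteasome counts run over all 49 genes. They include Psmg3 without knockout 1 and Psmb8 without knockout 3, both below the filter of the test. Proteasome genes with every knockout below every control numbered 1, with 2 on TMM and on RLE library sizes (Psmb4 beside Psmc2) and 1 to 3 with 1 library left out. The share of all tested genes was 2.3% with all libraries and 3.74% to 7.96% with 1 left out. That share was 2.01% on TMM and 2.76% on RLE library sizes. The median log2 fold change of 20S core genes was 0.38, with 1.29 by limma voom, 0.77 on log2(FPKM + 1), 0.88 on log2(FPKM + 0.1), and 0.16 to 0.63 with 1 library left out. That of 19S subunits was 0.35, with 1.76 by limma voom and -0.37 to 0.74 with 1 library left out, the negative value being without knockout 3.

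Signs turned in 5 named genes. Psme2 (0.36) was -0.028 with RLE, -0.0572 with DESeq2 and -0.29 to 14.2 with 1 library left out. Psmb1 (-0.19) was 0.47 with limma voom, 0.0026 with the replicate block and -0.65 to 0.295 with 1 library left out. Psmb7 (-0.51) was 2.4 with limma voom, 0.77 on log2(FPKM + 1), 1.84 on log2(FPKM + 0.1) and -1.72 to 0.45 with 1 library left out. Psmb10 (-1.07) ran from -11.1 to 0.67 and Psmb2 (0.38) from -0.0796 to 0.74 with 1 library left out. The cause was not tested. With the replicate number as a block, 0 genes were called, 197 had an unadjusted p under 0.05 (281 without it), and Psma2 was at 3.92 with an adjusted p of 0.352; the block changed no call. Near 0, 3 counts cannot be told from none. Low counts were not confined to shallow libraries: control 3, with 16372260 counts, had 1 count each of Psmd14 and Psmd4. The spread between libraries of a genotype was wide.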
